A study of Mus musculus with 12 samples.

Results

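The D cyclins and CDK inhibitors of B16F10 cells, a mouse melanoma line, were followed by RNA sequencing together with the kinases they act on. The 10 genes were the D cyclins Ccnd1, Ccnd2 and Ccnd3, the kinases Cdk4 and Cdk6, the inhibitors Cdkn1a, Cdkn1b, Cdkn2c and Cdkn2d, and Rb1. The 10 members were taken by gene symbol from the 24421 symbols in the count files, and all 10 were found and were among the 11638 genes that passed the filter on low counts. There were 4 groups with 3 replicates each. Control cells received vehicle (dimethyl sulfoxide). The DAC group received 25 nM of 5-aza-2'-deoxycytidine, a nucleoside analog that inhibits DNA methylation, for 72 h. The SFN group received sulforaphane, an isothiocyanate from cruciferous vegetables, for 48 h, and the DAC+SFN group received both drugs. The labels give 5 nM of SFN for the SFN group and 5 µM for the DAC+SFN group, whereas the methods of the study give 5 µM for both, so by the labels these groups also differed in SFN dose. All samples came from 1 established line, and the replicates were described as independent biological repeats.

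D cyclins are the part of the G1 engine that is made in response to growth signals. Each binds CDK4 or CDK6, and the complex phosphorylates the retinoblastoma protein, encoded by Rb1, which then releases E2F transcription factors and allows the genes of DNA synthesis to be expressed. INK4 proteins, such as those of Cdkn2c and Cdkn2d, bind the kinases and keep D cyclins off, while the Cip/Kip proteins p21 (Cdkn1a) and p27 (Cdkn1b) block the CDK2 complexes that act later and also help to assemble cyclin D complexes. Loss of INK4 genes and gain of cyclin D1 are both well known in melanoma.

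Between 15880957 and 27291436 reads per library were counted on genes. Levels are given as CPM, which are counts per 1e+06 counts of the library after TMM normalization. Of the 9 melanocyte markers, 8 passed the filter, and Ednrb had 0 or 1 counts in every library. The summed level of these markers was 24241.5 to 30096.5 CPM in control and 21420 to 28416 CPM with the combination. Pmel (log2 fold change -0.36, adjusted p = 0.0129) and Tyrp1 (-0.17, adjusted p = 0.0478) fell with the combination. The other 6 tested did not pass, and 14.7% of all genes fell in that comparison. Of 9 markers of other cells, 2 passed the filter, no library held more than 2 counts of Ptprc, Cd3e, Cdh5, Epcam, Krt14 or Dcn, and Pecam1 had 1 to 11 counts. The summed level of this second list was 4.83 to 7.23 CPM over the control libraries, 5.63 to 7.83 over DAC, 7.53 to 10.4 over SFN and 10.4 to 13.3 over DAC+SFN libraries. Those 2 moved in opposite directions with the combination. Cd68 (45 to 239 counts) rose by 1.55 on the log2 scale (adjusted p = 1.98e-05), and Pdgfra (26 to 65 counts) fell by 0.73 (adjusted p = 0.0249). The part of these markers in the results below was not tested. In RNA from a bulk culture, a change in the share of cells in one phase and a change in RNA per cell cannot be told apart. The study stained cells with propidium iodide and reported a normal phase distribution, with G1 dominant, in treated and control cells. It found the share in G2/M not significantly different between treatments.

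In control cells, the 10 genes covered a wide range of levels. Per kb of merged exon, Cdk4 had the highest level, 118 ± 5.15 CPM per kb (SD, n = 3). Ccnd2 (91.7 ± 8.43), Cdkn1a (84.7 ± 18.7) and Ccnd1 (67.8 ± 24.7 CPM per kb) came next, and the libraries of neighbours in this order overlapped. Ccnd3 stood apart at 33.3 ± 5.82 CPM per kb. Cdkn2d (23.5 ± 2.09), Cdkn2c (22.0 ± 1.94) and Cdkn1b (17.2 ± 4.86 CPM per kb) again overlapped as neighbours. Rb1 had 5.05 ± 0.107 CPM per kb and Cdk6 had 0.324, with libraries from 0.294 to 0.381 CPM per kb. Of the 3 other CDK inhibitor genes on the list, none passed the filter. Cdkn1c had 4 to 23 counts per library. Cdkn2a and Cdkn2b, the INK4 genes most often lost in melanoma, had 0 counts in all 12 libraries, where 3 counts in the shallowest library would be 0.189 CPM.

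With DAC, Ccnd1 and Cdkn1a rose and no other member passed the test. With SFN, Ccnd1, Ccnd2, Ccnd3 and Cdkn1a rose and Cdkn1b fell. With the combination treatment, Ccnd1, Ccnd2, Ccnd3, Cdk6 and Cdkn1a rose and Cdk4, Cdkn1b and Cdkn2c fell. A gene passed at an adjusted p-value under 0.05 in edgeR's quasi-likelihood F-test, adjusted by Benjamini-Hochberg over the 11638 genes, with the replicate number as a block. For DAC compared to control, 2 of 10 members passed, and 0.18% of all genes did. For SFN compared to control, 4 of 10 rose and 1 fell, where 8.27% of all genes rose and 5.65% fell. For the combination compared to control, 5 of 10 rose and 3 fell, where 17% of all genes rose and 14.7% fell. A fold change above 2 was reached by 0 members with DAC, where 0.0344% of all genes passed this second threshold as well, by Ccnd1 with SFN, where 1.28% did, and by Ccnd1 and Cdkn1a with the combination, where 2.66% did. The 3 comparisons share the control samples. The members were chosen with earlier results of these data known, so the shares over all genes are a description. Without the block, no member passed with DAC or with SFN, and Ccnd1, Ccnd2, Cdkn1a and Cdkn2c passed with the combination. The median log2 fold change of the 10 members was 0.05 for DAC, 0.26 for SFN and 0.34 for DAC+SFN, beside medians of 0.0049, 0.0040 and 0.0078 over all genes.

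**Figure D1:**
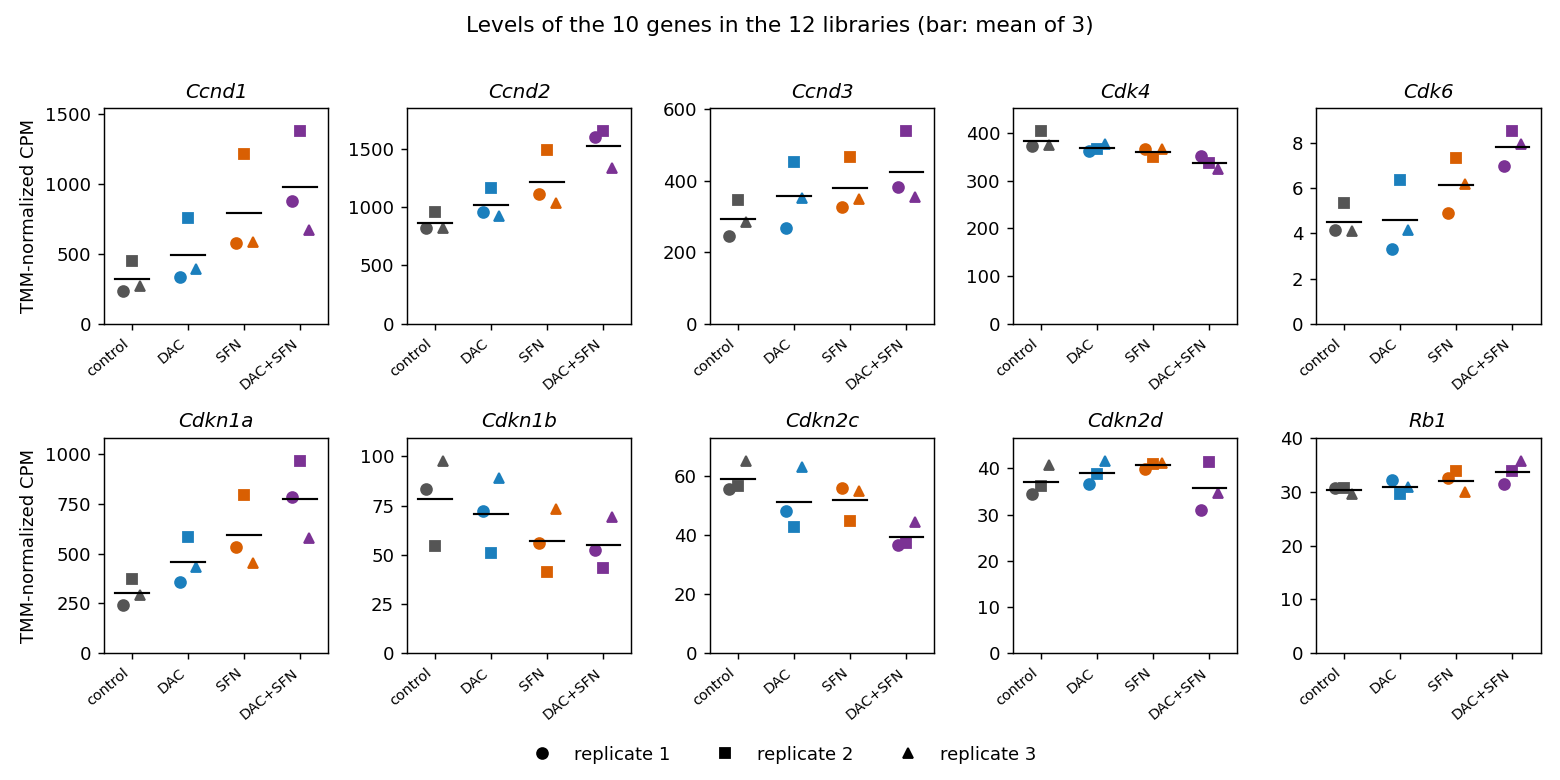
TMM-normalized CPM of the 10 genes (y axis, from 0) in each library of the 4 groups (x axis), with the bar at the mean of 3 replicates and the symbol giving the replicate number. Ccnd1 lies at 233 to 452 CPM in control and at 667 to 1375 CPM with DAC+SFN, and the replicate 2 library is the highest of its group for Ccnd1 and Cdkn1a and the lowest for Cdkn1b in all 4 groups.

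Among the D cyclins, Ccnd1 (cyclin D1, Entrez Gene 12443) had the largest estimates. The gene lies on the minus strand at chr7:144929931-144939925 in mm10. Its levels in replicates 1, 2 and 3 were 233, 452 and 273 CPM in control and 332, 759 and 392 CPM with DAC. With SFN they were 575, 1215 and 581 CPM, and with the combination 880, 1375 and 667 CPM. All 3 SFN libraries and all 3 DAC+SFN libraries lay above all control libraries, while the DAC libraries overlapped with control. Libraries lay wholly above control for 4.09% of all genes for DAC, 10.9% for SFN and 15.1% for DAC+SFN. On the log2 scale, the DAC change was 0.60 (SE 0.10, adjusted p = 0.0344), the SFN change was 1.27 (SE 0.10, adjusted p = 4.36e-06) and the DAC+SFN change was 1.61 (SE 0.10, adjusted p = 2.55e-07). The DAC value did not pass in 5 of 12 fits that left out 1 library, namely control replicate 1 or 2, DAC replicate 2 or 3 or SFN replicate 1, where the adjusted p-value reached 0.286 and the log2 fold change stayed between 0.54 and 0.69. LTO1, a gene on the opposite strand, shares 1100 bases of exon with Ccnd1, 23.4% of the merged exons of Ccnd1. The libraries were made with a stranded kit, but the strand setting of the counting is not given in the sources used here. Whether the counts kept these reads apart is therefore not known.

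Ccnd2 (cyclin D2, Entrez Gene 12444, chr6:127125162-127152193, minus strand) was the D cyclin with the highest level per kb in control. Its levels were 817, 955 and 818 CPM in control and 957, 1165 and 920 CPM with DAC, which overlapped. They were 1116, 1488 and 1035 CPM with SFN and 1599, 1649 and 1333 CPM with the combination, and both groups lay above control throughout. In log2 fold change, DAC cells differed from control by 0.23 (95% interval 0.08 to 0.37, adjusted p = 0.229), SFN cells by 0.48 (SE 0.069, adjusted p = 0.000383) and DAC+SFN cells by 0.82 (SE 0.069, adjusted p = 2.34e-06).

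Ccnd3 (cyclin D3, Entrez Gene 12445, chr17:47505051-47599691, plus strand) had the smallest estimate of the D cyclins with the combination. It had 245, 346 and 285 CPM in control. DAC libraries had 268, 452 and 351 CPM, SFN libraries had 327, 466 and 347 CPM and DAC+SFN libraries had 382, 537 and 354 CPM. The DAC+SFN libraries lay just above control, from 354 CPM against a highest control value of 346 CPM, and the other groups overlapped with control. As log2 fold changes, DAC gave 0.28 (adjusted p = 0.185), SFN gave 0.38 (SE 0.076, adjusted p = 0.00418) and DAC+SFN gave 0.53 (SE 0.076, adjusted p = 0.000145). With the 4 libraries of replicate number 2 left out, Ccnd3 passed with the combination and no longer with SFN. Without DAC+SFN replicate 3, the DAC value passed (0.28, adjusted p = 0.0388).

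The unequal rises changed the make-up of D cyclin mRNA. Per kb of merged exon, Ccnd1 held 34.4 ± 5.39% of the sum of the D cyclins in control cells (SD, n = 3), and 40.1 ± 6.90% in DAC, 48.0 ± 6.05% in SFN and 48.6 ± 5.96% in DAC+SFN cells. The share of Ccnd2 was 48.2 ± 5.05% in control and 39.8 ± 5.78% with the combination. The share of Ccnd3 was 17.3 ± 0.886% in control and 11.6 ± 0.791% with the combination. These shares are a description without a test, and they depend on the length used: divided by the longest transcript instead, Ccnd1 held 28.1% in control and 41.7% with the combination.

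Cdk4 (Entrez Gene 12567, chr10:127063534-127067920, plus strand), the kinase with the higher level per kb, fell with the combination. It had 373, 403 and 376 CPM in control. DAC libraries had 363, 367 and 377 CPM, SFN libraries had 366, 350 and 367 CPM and DAC+SFN libraries had 351, 336 and 325 CPM. The SFN and DAC+SFN libraries lay below all control libraries, as they did for 9.93% and 14.3% of all genes (4.34% for DAC). On the log2 scale, the DAC change was -0.06 (adjusted p = 0.766), the SFN change was -0.09 (95% interval -0.21 to 0.03, adjusted p = 0.300) and the DAC+SFN change was -0.19 (SE 0.055, adjusted p = 0.0177). Without control replicate 2 the combination value was -0.14 and did not pass (adjusted p = 0.120), and Cdk4 also did not pass without the block (adjusted p = 0.0677), with only the groups compared or with the libraries numbered 2 left out. Tspan31, on the opposite strand, shares 641 bases of exon with Cdk4 (19.7%).

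Cdk6 (Entrez Gene 12571, chr5:3341485-3531008, plus strand), the other kinase that D cyclins bind, rested on 80 to 195 counts per library. Its levels were 4.14, 5.33 and 4.11 CPM in control. DAC libraries had 3.31, 6.38 and 4.16 CPM, SFN libraries had 4.89, 7.34 and 6.21 CPM and DAC+SFN libraries had 7.01, 8.52 and 7.99 CPM. The DAC+SFN libraries lay above control and those of the single treatments overlapped with it. In log2 fold change, DAC cells differed from control by -0.01 (95% interval -0.35 to 0.33), SFN cells by 0.44 (adjusted p = 0.0706) and DAC+SFN cells by 0.80 (SE 0.15, adjusted p = 0.00118). Per kb, the sum of the D cyclins over the sum of the kinases was 1.43 to 1.90 over the control libraries, 1.81 to 2.97 over DAC, 2.40 to 4.34 over SFN and 3.22 to 5.08 over DAC+SFN libraries, where Cdk4 made up nearly all of the denominator.

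The promoter of Cdk4 is printed because its letters stand apart from those of most windows searched. RefSeq promoter windows of 250 bases before the start (GRCm38.p6, the mm10 build) were found for 7 of the 10 members, and Ccnd1, Ccnd2 and Rb1 had none. The Cdk4 window, chr10:127063285-127063534 on the plus strand, holds 4 copies of the palindrome CACGTG (E-box), shown in capitals. At least 1 copy is present in 6.02% of the 32851 promoter windows of the table, and 4 or more in 7 windows (0.0213%).
Cdk4 promoter: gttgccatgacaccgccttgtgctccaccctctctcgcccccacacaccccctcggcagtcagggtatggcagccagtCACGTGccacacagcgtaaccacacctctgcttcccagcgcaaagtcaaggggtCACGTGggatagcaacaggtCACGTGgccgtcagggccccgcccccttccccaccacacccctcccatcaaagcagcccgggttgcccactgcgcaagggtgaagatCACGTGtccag

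Cdkn1a (p21, Entrez Gene 12575, chr17:29090976-29100727, plus strand) was the Cip/Kip gene that rose. Its levels were 239.9, 372 and 291 CPM in control and 357, 582 and 432 CPM with DAC. With SFN they were 535, 792 and 454 CPM, and with the combination 784, 964 and 579 CPM. The SFN and DAC+SFN libraries lay above all control libraries, and the DAC libraries overlapped with control by 1 library, at 357 CPM. As log2 fold changes, DAC gave 0.60 (SE 0.11, adjusted p = 0.0441), SFN gave 0.96 (SE 0.11, adjusted p = 6.27e-05) and DAC+SFN gave 1.36 (SE 0.11, adjusted p = 1.91e-06). Within replicate numbers 1, 2 and 3, the log2 differences of DAC from control were 0.57, 0.65 and 0.57. The DAC value lost its call in 6 of 12 fits that left out 1 library (control replicate 1 or 2, DAC replicate 2 or 3, SFN replicate 1 or DAC+SFN replicate 2), with log2 fold changes of 0.49 to 0.72 over the 12 fits and an adjusted p-value of up to 0.292.

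RefSeq lists a pair of transcription starts of Cdkn1a, and both windows are shown because the gene is a classical target of p53. In the upstream window, chr17:29090729-29090978, capitals mark 2 matches to the p53 half-site. At least 1 match on either strand is present in 7.13% of all windows and 2 or more in 0.259%. In the downstream window, chr17:29093519-29093768, capitals mark 2 copies of the GC box GGGCGG, which 32.7% of all windows hold at least once. A match is a description of the letters and not evidence of binding.
Cdkn1a upstream start: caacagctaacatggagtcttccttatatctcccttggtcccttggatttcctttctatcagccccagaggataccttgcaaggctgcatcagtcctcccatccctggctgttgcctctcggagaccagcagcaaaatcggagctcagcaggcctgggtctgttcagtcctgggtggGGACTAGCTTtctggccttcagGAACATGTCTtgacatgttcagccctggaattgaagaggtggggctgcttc
Cdkn1a downstream start: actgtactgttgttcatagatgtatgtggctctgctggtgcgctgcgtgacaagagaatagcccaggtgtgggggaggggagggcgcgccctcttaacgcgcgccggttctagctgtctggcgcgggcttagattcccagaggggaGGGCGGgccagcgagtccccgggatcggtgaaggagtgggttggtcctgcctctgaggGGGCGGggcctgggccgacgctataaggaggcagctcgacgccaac

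Cdkn1b (p27, Entrez Gene 12576, chr6:134920401-134925513, plus strand), the other Cip/Kip gene, fell with SFN and with the combination. It had 83.4, 54.3 and 97.7 CPM in control. DAC libraries had 72.0, 51.0 and 89.2 CPM, SFN libraries had 56.1, 41.2 and 73.4 CPM and DAC+SFN libraries had 52.3, 43.3 and 69.4 CPM. All treated groups overlapped with control, since the replicate 2 control library was as low as treated libraries of the other numbers, and within each number every treated library lay below its control. On the log2 scale, the DAC change was -0.15 (95% interval -0.28 to -0.01, adjusted p = 0.464), the SFN change was -0.46 (SE 0.065, adjusted p = 0.000335) and the DAC+SFN change was -0.50 (SE 0.065, adjusted p = 7.49e-05). Without the block, the combination value was -0.51 (adjusted p = 0.237). The Cdkn1b window, chr6:134920151-134920400 on the plus strand, is shown beside that of Cdkn1a and holds 1 GC box, in capitals, and no match to the p53 half-site. Of the other members with a window, Cdkn2d, which did not pass in any comparison with control, holds 1 match to the half-site.
Cdkn1b promoter: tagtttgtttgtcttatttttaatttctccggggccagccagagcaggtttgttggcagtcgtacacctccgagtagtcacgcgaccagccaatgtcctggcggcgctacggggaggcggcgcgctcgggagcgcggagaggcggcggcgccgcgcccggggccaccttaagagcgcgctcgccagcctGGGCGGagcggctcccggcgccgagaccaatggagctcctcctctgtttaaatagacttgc

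Because these Cip/Kip genes moved in opposite directions, their ratio changed more than either level. Per kb of exon, Cdkn1a over Cdkn1b was 3.69, 8.78 and 3.82 in control replicates 1, 2 and 3. DAC libraries had ratios of 6.35, 14.6 and 6.20, SFN libraries of 12.2, 24.6 and 7.93, and DAC+SFN libraries of 19.2, 28.5 and 10.7. Within each replicate number the order was control, DAC, SFN, DAC+SFN, while across numbers the groups overlapped between neighbours. The sum of both genes over the sum of the D cyclins, per kb, was 0.533 ± 0.0463 in control and 0.554 ± 0.0243 with the combination (SD, n = 3), a difference smaller than the spread between replicates.

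**Figure D2:**
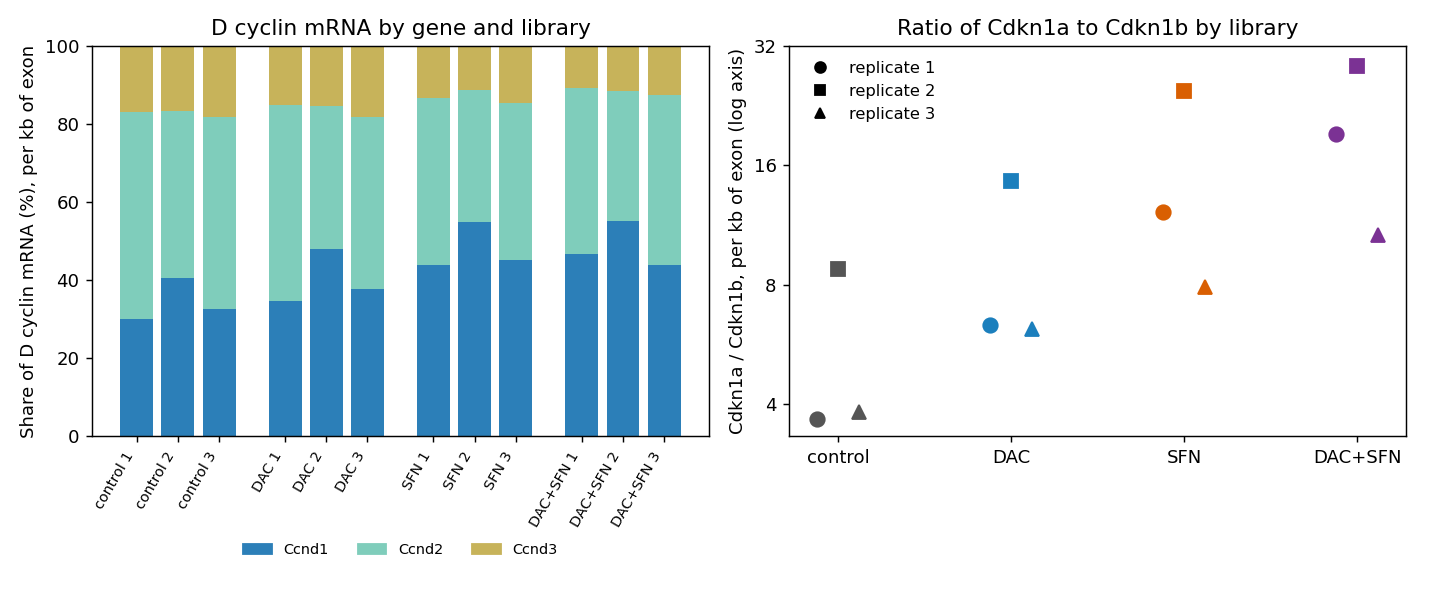
Left, the share of Ccnd1, Ccnd2 and Ccnd3 in their sum (y axis, percent, per kb of merged exon) in each of the 12 libraries; right, the ratio of Cdkn1a to Cdkn1b per kb (log axis) by group, with the symbol giving the replicate number. The mean Ccnd1 share is 34.4% in control and 48.6% with DAC+SFN, and the ratio runs from 3.69 to 8.78 in control and from 10.7 to 28.5 with DAC+SFN.

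Of the INK4 genes, Cdkn2c (p18, Entrez Gene 12580, chr4:109660876-109667189, minus strand) fell with the combination. Its levels were 55.5, 56.5 and 65.0 CPM in control. DAC libraries had 47.9, 42.5 and 62.8 CPM, SFN libraries had 55.9, 44.7 and 54.7 CPM and DAC+SFN libraries had 36.6, 37.3 and 44.4 CPM, and the DAC+SFN libraries lay below all control and all SFN libraries. In log2 fold change, DAC cells differed from control by -0.22 (adjusted p = 0.389), SFN cells by -0.19 (adjusted p = 0.145) and DAC+SFN cells by -0.58 (SE 0.085, adjusted p = 0.000163). Without SFN replicate 1, the SFN value was -0.30 and passed (adjusted p = 0.0468). Cdkn2d (p19, Entrez Gene 12581, chr9:21288410-21291407, minus strand) had 34.4, 36.1 and 40.7 CPM in control. DAC libraries had 36.7, 38.7 and 41.6 CPM, SFN libraries had 39.9, 40.9 and 41.1 CPM and DAC+SFN libraries had 30.9, 41.3 and 34.7 CPM. No treated group of Cdkn2d was apart from control. Its log2 fold change with the combination was -0.06 (95% interval -0.24 to 0.12, adjusted p = 0.635).

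Rb1 (Entrez Gene 19645, chr14:73183673-73325822, minus strand), the substrate of the kinases, varied little. It had 30.8, 30.7 and 29.6 CPM in control. DAC libraries had 32.3, 29.6 and 30.9 CPM, SFN libraries had 32.5, 33.8 and 29.97 CPM and DAC+SFN libraries had 31.5, 33.9 and 35.8 CPM. The DAC+SFN libraries lay above all control libraries, with the lowest at 31.5 CPM against a highest control value of 30.8 CPM. The log2 fold change with the combination was 0.15 (95% interval -0.02 to 0.32, adjusted p = 0.159), so a change of up to 0.32 was within the interval. Exons of Rcbtb2 and Lpar6 on the opposite strand cover 8.11% and 6.78% of the merged exons of Rb1.

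**Figure D3:**
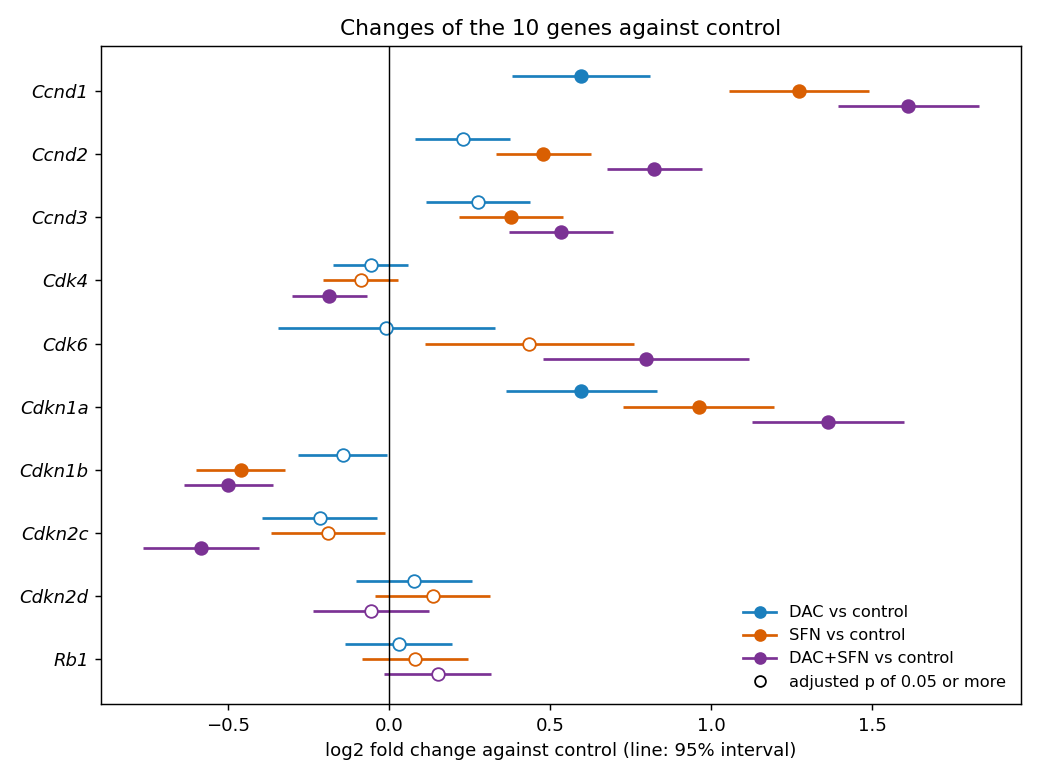
Log2 fold change against control (x axis) of the 10 genes (y axis) with DAC, SFN and DAC+SFN, with lines for the 95% interval and open points where the adjusted p-value was 0.05 or more. The Ccnd1 points lie at 0.60, 1.27 and 1.61, and the Cdkn2d and Rb1 points are open for all 3 treatments.

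The question of what the combination added to each single drug was addressed by comparing the treated groups directly. Compared to DAC, 5 of 10 members rose and 2 fell with the combination, where 9.55% of all genes rose and 6.6% fell. The log2 fold change was 1.02 for Ccnd1 (95% interval 0.80 to 1.23), 0.81 for Cdk6 (0.49 to 1.13), 0.77 for Cdkn1a (0.53 to 1.00), 0.59 for Ccnd2 (0.45 to 0.74) and 0.26 for Ccnd3 (0.09 to 0.42). It was -0.37 for Cdkn2c (-0.55 to -0.19) and -0.35 for Cdkn1b (-0.49 to -0.21). The Ccnd3 call was lost without control replicate 1, DAC replicate 1 or 2 or DAC+SFN replicate 1 or 2, with values from 0.16 to 0.34 over all fits that left out 1 library. The Cdkn2c call was lost without DAC replicate 3 or DAC+SFN replicate 1, where the adjusted p-value reached 0.0647 and values ran from -0.43 to -0.27. Ccnd1 alone was above 2-fold, as were 0.928% of all genes. The DAC+SFN libraries lay wholly above the DAC libraries for Ccnd2 and Cdk6 and below them for Cdk4, which 9.19% and 8.98% of all genes did. Cdkn2d passed, at -0.26, without DAC+SFN replicate 2. Without the block, none of the 7 passed, and 20 of all 11638 genes did.

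Compared to SFN, 1 member rose and 1 fell with the combination, where 0.937% of all genes rose and 0.67% fell. By the labels, the SFN dose also differed here. Ccnd2 had a log2 fold change of 0.34 (95% interval 0.20 to 0.49, adjusted p = 0.0288), and Cdkn2c was at -0.39 (-0.57 to -0.21, adjusted p = 0.0379). Ccnd1 (0.34, 95% interval 0.13 to 0.55, adjusted p = 0.0887), Cdkn1a (0.40, 0.17 to 0.63, adjusted p = 0.0716) and Cdk6 (0.36, 0.05 to 0.67, adjusted p = 0.203) had estimates of like size that did not pass. Only Cdkn2c had its DAC+SFN libraries wholly on one side of the SFN libraries, below them, where 6.86% of all genes were below and 5.23% above. Cdkn1b was at -0.04 (95% interval -0.18 to 0.10, adjusted p = 0.812). Neither call held in every fit that left out 1 library: Ccnd2 was lost without SFN replicate 1 or 3 or DAC+SFN replicate 1 (values from 0.26 to 0.42), and Cdkn2c without these or control replicate 1 or DAC+SFN replicate 2 (values from -0.46 to -0.29). Without DAC+SFN replicate 3, Ccnd1 passed at 0.44, Ccnd3 at 0.24 and Cdkn1a at 0.51, and Cdkn1a also passed without DAC replicate 3.

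The interaction asked whether the log2 effects of DAC and SFN added up. No member passed, and 0% of all genes did, while 683 genes (5.87%) had an unadjusted p-value under 0.05 and DESeq2's Wald test also called 0. Without the filter on low counts, 1 gene passed. The estimate for Ccnd1 was -0.26 (95% interval -0.56 to 0.05, adjusted p = 0.903) and that for Cdkn1a was -0.19 (-0.52 to 0.13, adjusted p = 0.970). The estimate for Cdk6 was 0.37 (-0.08 to 0.83, adjusted p = 0.912). Cdkn2d had the only unadjusted p-value under 0.05 among the members, 0.0389, with an estimate of -0.27 (-0.52 to -0.02, adjusted p = 0.850). These intervals leave room for departures from additivity of up to 0.56 for Ccnd1 and 0.83 for Cdk6.

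Of the 10 members, 7 also differed between the replicate numbers. This comparison was added after the data were seen. Across the 4 groups, the libraries numbered 2 had a log2 level 0.96 above those numbered 1 for Ccnd1 (adjusted p = 1.79e-06 in the F-test of the number), 0.56 above for Ccnd3 (adjusted p = 4.90e-05), 0.54 above for Cdkn1a (adjusted p = 0.000442) and 0.24 above for Ccnd2 (adjusted p = 0.00128). Cdkn1b was 0.46 lower on the log2 scale in number 2 than in number 1 and 0.79 lower than in number 3 (adjusted p = 1.13e-06). Cdk6 (adjusted p = 0.0169) and Cdkn2c (adjusted p = 0.00858) also differed, and Cdk4 (0.977), Cdkn2d (0.154) and Rb1 (adjusted p = 0.959) did not pass. Over all genes, 33.9% passed. What the numbers stand for beyond a repeat is not given, and a culture, an extraction and a library batch cannot be told apart.

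Genes around the members were taken from lists written for the pathway. Like the members, the lists were chosen with earlier results of these data known. The shares over all genes beside their counts are therefore a description and not a test of the lists. E2F-regulated S phase genes, which encode the replication machinery, were lower with the combination: of 20 tested, 18 fell and none rose, where 14.7% of all genes fell, with a median log2 fold change of -0.32 beside 0.0078 over all genes. Rfc4 and Rfc3, subunits of the clamp loader, had log2 fold changes of -0.56 (adjusted p = 0.00105) and -0.49 (adjusted p = 0.000183). Tyms, thymidylate synthase, was at -0.51 (adjusted p = 0.00243), and Mcm7, a subunit of the replicative helicase, fell from 238 ± 23.7 to 170 ± 11.2 CPM (-0.49, adjusted p = 0.000132). With SFN 1 of the 20 fell, Mcm7 (-0.24, adjusted p = 0.0292), a share near the 5.65% of all genes that fell. With DAC none of the 20 passed, and the medians were -0.10 for SFN and -0.14 for DAC. Compared to DAC, 7 fell with the combination, where 6.6% of all genes fell. The number passed there was 2 to 13 with 1 library left out and 0 without the block. Compared to SFN, where 0.67% of all genes fell, 4 of the 20 fell, Tk1 (-0.42), Rfc3 (-0.36), Slbp (-0.30) and Pcna (-0.30). They are named because they were few. This count was not stable, at 0 to 16 with 1 library left out and 0 to 19 under the other settings.

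Of 12 pocket protein, E2F and DP genes, 4 fell with the combination and none rose (median -0.08), where 14.7% of all genes fell and 17% rose. These were Rbl1, which encodes the pocket protein p107 (-0.54, adjusted p = 0.000177), the repressor E2f8 (-0.49), and the activators E2f2 (-0.38) and E2f1 (-0.23, adjusted p = 0.0118). Of 5 cyclin E, cyclin A and CDK2 genes tested, Cdk2 (-0.50, adjusted p = 3.40e-05) and Ccna2 (-0.47, adjusted p = 0.000176) fell and Ccne1 rose (0.18, adjusted p = 0.0479), and Ccna1 was below the filter. With SFN, the same 3 genes passed, with Ccne1 at 0.31, Cdk2 at -0.33 and Ccna2 at -0.25. Over all genes, 8.27% rose and 5.65% fell with SFN. The SFN count of this list was 2 to 4 with 1 library left out and 0 without the block.

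Among 8 genes for the turnover of D cyclins and p27, 3 fell with the combination, where 14.7% of all genes fell, and none rose. With SFN 1 of the 8 rose, Fbxo4 (0.41), where 8.27% of all genes rose. The number passed with SFN was 0 to 2, both with 1 library left out and under the other settings. With the combination Skp2, the ubiquitin ligase subunit that recognises p27, was at -0.45 (adjusted p = 0.000589). Its cofactor Cks1b was at -0.35 (adjusted p = 0.000708) and the scaffold Cul1 at -0.19 (adjusted p = 0.0232). Of the 3 genes of the CDK-activating kinase, 1 fell with the combination, Ccnh (-0.22, adjusted p = 0.0324), and the other 2 did not pass. Between 0 and 2 of the 3 passed with 1 library left out. None passed without the block, with only the groups compared or without the libraries numbered 2.

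Most of the list of p53 and its targets, which left out Cdkn1a, moved up. With the combination 11 of 14 tested rose and none fell, where 17% of all genes rose, with a median log2 fold change of 0.75 beside 0.0078 over all genes. Perp, with 7 to 28 counts per library, was below the filter. Btg2, an antiproliferative gene, rose from 16.3 ± 5.17 to 45.6 ± 3.88 CPM (1.53, adjusted p = 7.23e-06). Plk2, a kinase gene, was at 1.22 (adjusted p = 3.75e-07), the receptor gene Eda2r rose from 1.86 ± 0.632 to 4.24 ± 0.490 CPM (adjusted p = 0.000577), and Mdm2, the ubiquitin ligase of p53, was at 1.03 (adjusted p = 5.01e-07). With SFN 8 rose (median 0.41), where 8.27% of all genes rose. With DAC 2 rose (median 0.36), Plk2 (0.57) and Trp53inp1 (0.53), where 0.18% of all genes rose. In the same fit Cdkn1a was at 0.60, 0.96 and 1.36 with DAC, SFN and the combination. The list genes passed with DAC ran from 0 to 7 with 1 library left out and from 0 to 10 under the other settings. Without the block, 24 genes over all these lists passed with the combination in place of 40, and 0 passed with SFN in place of 13. Of all 11638 genes, 1201 passed with the combination in place of 3683, and 23 with SFN in place of 1619.

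**Figure D4:**
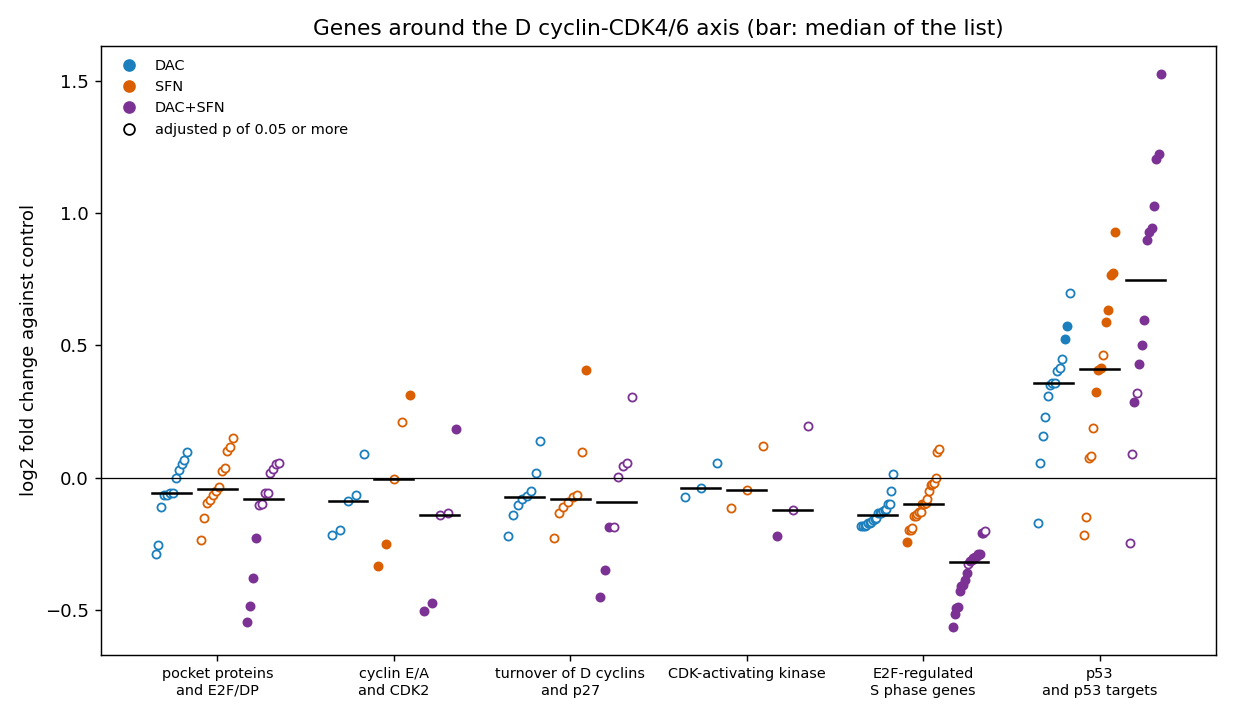
Log2 fold change against control (y axis) of each tested gene of 6 lists (x axis) with DAC, SFN and DAC+SFN, with bars at the median of the list and open points where the adjusted p-value was 0.05 or more. For DAC+SFN the medians are -0.32 for the E2F-regulated S phase genes and 0.75 for p53 and its targets.

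The genes whose pattern was most like that of Ccnd1 and Cdkn1a were found by Pearson's r over the 12 libraries, from log2 CPM with the mean of each replicate number removed. This is a description, since all points share the treatments. For Ccnd1 they were Ak1 (0.997), Fam212b (0.997), Rgs12 (0.996), Mdm2 (0.994) and Cpe (0.993). For Cdkn1a they were Aen (0.993), Ccl5 (0.991), Kctd11 (0.990), Usp2 (0.989) and Tnfrsf12a (0.989).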

How the data were processed

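The deposited files of the 12 samples hold raw read counts per gene symbol. By the submitters' processing notes and the study's methods, reads were trimmed (Trimmomatic 0.38), mapped to mm10 (TopHat2 2.1.1) and counted where uniquely aligned (HTSeq). The annotation and the strand setting of the counting are not given in the sources used here.

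Genes reaching 1 CPM in 3 or more of 12 libraries were kept, normalized by TMM and tested with glmQLFTest (legacy quasi-likelihood fit) in edgeR 4.0.16 under R 4.3.3. A single fit used all 12 samples with replicate number as block (6 residual degrees of freedom), in place of the batch that the study corrected for. The tests were two-sided. SE is the log2 fold change over the square root of F. Log2 fold changes carry a prior count of 0.125, and differences within replicate numbers one of 2. After group means were removed, libraries with the same number correlated at 0.270 to 0.732 over 18 pairs, so the numbers were taken as pairs. Replicates were not copies (chi-square per gene of their counts, 13.6 to 37.5). Depth limits precision mostly for Cdk6.

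Positions and merged exon lengths were from GENCODE M21, promoters from RefSeq (GRCm38.p6). Motifs were searched on both strands: the E-box CACGTG, the GC box GGGCGG, the antioxidant element TGACNNNGC, the AP-1 site TGANTCA, the CRE TGACGTCA, the TATA box TATAAA, and the E2F site and p53 half-site by name.

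The members and lists were chosen with earlier results of these data known. The text names all members and up to 4 passing genes a list by size of the combination's change. It also names list genes below the filter, the 5 genes most like Ccnd1 and Cdkn1a, and Trp53 and Sesn1. Alternatives were DESeq2 1.42.0 (size factors, Wald test), other filters, no block, only the groups compared, a robust fit, edgeR's version 4 fit, a prior count of 2, each library left out, and, chosen after seeing the data, the libraries numbered 2 left out. The fits were tested on simulated data.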

Additional observations from a re-analysis of the deposited data

How the results depend on the processing

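Of the members' log2 fold changes under the alternatives, 1224 kept their direction and side of the threshold, 58 fell below it, 16 rose past it and 12 turned in sign. Of the last, Cdk6 with DAC was 0.0083 without the replicate block and 0.0013 with only the groups compared. The others came from leaving out 1 library, with ranges of -0.17 to 0.095 for Cdk6 with DAC, -0.10 to 0.019 for Cdkn1b against SFN, -0.19 to 0.0029 for Cdkn2d with the combination, and for Rb1 -0.013 to 0.074 with DAC, -0.0025 to 0.13 against SFN and -0.034 to 0.11 for the interaction. The cause was not tested.

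Without the replicate block, the members passed were 0 with DAC, 0 with SFN, 4 with the combination and 0 against either drug, with 0 above 2-fold for SFN and against DAC, and the list genes passed were 0, 0, 24, 0 and 0. Of all 11638 genes, 0, 23, 1201, 20 and 0 passed in the same order. With only the groups compared, 4 members passed with DAC and 5 against SFN. List genes passed were 23 with DAC, 11 against DAC and 38 against SFN. Over all genes, that setting called 663 of 11396 with DAC, 748 of 11485 against DAC and 1267 of 11460 against SFN. The main fit called 21, 1879 and 187 of 11638. The robust fit gave 0 members with DAC, where 16 of all genes passed. Without a filter, 4 members passed against SFN, 0 were above 2-fold against DAC, and 8 and 24 list genes passed with DAC and against SFN. DESeq2's Wald test gave 6 and 18. Of all genes, 169 passed with DAC and 486 against SFN without a filter, and 83 and 404 in the Wald test. Without the libraries numbered 2, 0 members passed with DAC and 0 against SFN. List genes passed were 0 with DAC, 5 with SFN, 9 against DAC and 1 against SFN. Of all genes, 0, 429, 863 and 3 passed in the same order. Leaving out 1 library gave 0 to 3 members with DAC, 5 to 6 with SFN, 7 to 8 with the combination, 5 to 7 against DAC and 0 to 5 against SFN; above 2-fold, 1 to 2 with SFN and 0 to 1 against DAC. List genes ran from 0 to 8, 9 to 17, 29 to 42, 9 to 30 and 0 to 31. All genes passed ran from 0 to 101, 726 to 2105, 2333 to 4199, 769 to 2377 and 0 to 703.

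With the longest transcript as length, the Ccnd1 share was 28.1, 40.9 and 41.7% (control, SFN, DAC+SFN) and the Ccnd3 share 25.5, 24.1, 20.1 and 18.0% (control, DAC, SFN, DAC+SFN). Without a length, in the same order, Ccnd1 held 21.2, 25.6, 32.1 and 32.6%, Ccnd2 59.0, 55.3, 51.7 and 52.9%, and Ccnd3 19.8, 19.1, 16.2 and 14.5%.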

Other observations

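Over the 12 libraries, with the mean of each replicate number removed from log2 CPM, Cdkn1b ran opposite to Ccnd1 (Pearson's r = -0.961) and to Cdkn1a (-0.926), while Ccnd1 and Cdkn1a ran together (0.984). Cdk4 and Cdkn2c, which both fell with the combination, had r = 0.848, and Cdkn2d was near 0 with Ccnd1 (-0.0562). These are descriptions, since the treatments are shared by all points.

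The level per kb of the members changed order with the combination. Cdkn1a (218 ± 54.3), Ccnd1 (207 ± 77.1) and Ccnd2 (162 ± 18.1 CPM per kb) lay above Cdk4 (104 ± 4.14 CPM per kb; SD, n = 3), which had been highest in control. Cdkn1a and Ccnd1 overlapped in their libraries, as did Ccnd1 and Ccnd2. The summed level of Cdkn2c and Cdkn2d over that of Cdk4 and Cdk6 was 0.385 ± 0.0417 in control and 0.358 ± 0.0455 with the combination, a difference smaller than the spread.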
